A study of Mus musculus with 4 samples.

Results

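Arginine breakdown and polyamine metabolism were followed through 10 genes (Arg1, Arg2, Oat, Odc1, Amd1, Srm, Sms, Sat1, Azin1 and Oaz1) in mouse mammary tissue with and without the transcription factor STAT5. The genes were chosen by function, as the enzymes of arginine breakdown and of polyamine synthesis and turnover together with the regulators of ornithine decarboxylase. A probe set, the group of short probes that reports 1 transcript on the array, counted as a member when its annotated gene symbol was exactly 1 of the 10. This gave 13 probe sets of 8 genes, out of 45037 probe sets and 18193 genes named by a single symbol. Sms was present only on 3 probe sets that also carry the symbol Sms-ps, and no probe set was annotated to Amd1 alone, so neither gene has a value here. The list was drawn up with differences on these same arrays known, that of Arg1 among them. All comparisons of KO with WT for the 10 genes are therefore a description and are not independent evidence.

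The 2 groups were mammary tissue of mice with the genotype STAT5 KO (2 arrays) and of mice with the genotype STAT5 WT (2 arrays), from 2 mice of each genotype collected at 6 days per the design text. The sources used here give neither the event from which the days are counted nor the deleted allele, any Cre driver, the strain or the age. STAT5 is activated in mammary epithelium by prolactin. Total RNA was hybridised to Affymetrix arrays, and signals were summarised with MAS5 per the submitters' processing notes.

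Arginase splits arginine into ornithine and urea. Ornithine then either enters proline and glutamate through ornithine aminotransferase or is decarboxylated to putrescine, which is extended to spermidine and spermine, the polyamines that growing cells need. The lactating mammary gland is known to use arginine as a source of ornithine, proline and polyamines, and arginase 1 is also a classical product of alternatively activated macrophages.

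Promoters are shown for 1 gene of each role so that the letters searched for a STAT5 site can be seen beside the values. Of the 10 genes, 6 were in the RefSeq promoter table (GRCm38.p6), and Arg1, Arg2, Srm and Azin1 were not. The 250 bases before each start are printed, with capitals marking matches on either strand to TTCNNNGAA (the STAT5 core), CACGTG (the E-box bound by Myc), GGGCGG (the GC box of Sp factors), TATAAA or CCAAT.
Oat promoter, chr7:132576399-132576648, minus strand: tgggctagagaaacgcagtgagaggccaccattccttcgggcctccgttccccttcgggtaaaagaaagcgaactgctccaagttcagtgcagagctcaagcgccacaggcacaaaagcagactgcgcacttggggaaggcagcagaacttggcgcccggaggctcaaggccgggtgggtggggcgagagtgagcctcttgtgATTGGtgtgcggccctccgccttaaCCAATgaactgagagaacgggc
Odc1 promoter, chr12:17544623-17544872, plus strand: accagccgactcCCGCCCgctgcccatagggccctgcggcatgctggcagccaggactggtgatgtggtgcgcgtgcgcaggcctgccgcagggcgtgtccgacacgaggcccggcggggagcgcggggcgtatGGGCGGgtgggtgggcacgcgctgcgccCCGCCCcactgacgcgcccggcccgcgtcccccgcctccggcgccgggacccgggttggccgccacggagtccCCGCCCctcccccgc
Oaz1 promoter, chr10:80826406-80826655, plus strand: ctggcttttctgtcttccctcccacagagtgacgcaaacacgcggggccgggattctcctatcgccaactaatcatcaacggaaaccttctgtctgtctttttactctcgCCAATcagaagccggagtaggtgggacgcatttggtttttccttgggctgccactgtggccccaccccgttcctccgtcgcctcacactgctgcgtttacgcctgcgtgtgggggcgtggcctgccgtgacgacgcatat

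None of the 7 promoters of the 6 genes (Sms has more than 1 start in the table) held TTCNNNGAA, which was present in 7.02% of 32851 mouse promoters of the same 250 bases. The Odc1 window held 4 GC boxes, a motif in 32.7% of all promoters, and no CACGTG, which was in 6.02% of them. Oat held 2 CCAAT matches and Oaz1 held 1, against 33.8% of promoters with at least 1. Overlaps between different motifs were not counted apart, and these letters describe the window only.

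The arrays carried a common scaling to a trimmed mean signal of 500.0, with 2% of the values cut off at each end. Median signals were 121 and 124 on KO arrays and 131 and 131 on WT arrays. Stat5a, measured as the check of the genotype, gave 1836 and 861 on KO replicates 1 and 2, against 2307 and 2061 on the WT arrays with its brighter probe set. Stat5b gave 1069 and 712 on the KO arrays, against 1522 and 1506 on the WT arrays. Both were lower on both KO arrays, by log2 differences of -0.79 and -0.78, and neither passed the test described next (limma adjusted p = 0.246 and 0.102). The dimmer probe sets were lower by more, at -1.22 for Stat5a (adjusted p = 0.106) and -0.97 for Stat5b (adjusted p = 0.121). They did not pass either. KO replicate 1 stood closest to WT, and the labels do not say which part of which gene was removed, so the calls of Arg1 and Slc7a2 below are also given without that array. Markers of fat and of epithelium were bright on every array. Adipocyte Adipoq gave 17958 and 19208 on KO arrays, against 18499 and 17022 on WT arrays. Epithelial Epcam gave 4233 and 6330 on KO arrays, against 9145 and 8659 on WT arrays. Neither marker is particular to mammary tissue.

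Signals were compared as log2(signal + 16) with limma across all 22519 probe sets whose mean was at or above the array median, and p-values were adjusted over all of them. The 22519 probe sets held 11360 genes, each represented by its brightest probe set. All 8 measured members, with all 13 probe sets, passed this filter on dim signals. Of the 8 genes, 1 (Arg1) passed the threshold of 0.05 on the adjusted p, where 2.57% of all tested genes did in either direction and 1.21% did so as higher in KO. The KO and WT ranges were separate for 6 of the 8 genes, against 53.7% of all tested genes. The median log2 difference of the 8 was 0.06, with a range from -0.71 to 2.69, and that of all tested genes was -0.01. The summed signal of the 8 genes was alike in both groups, at 26611 to 27547 on KO arrays and 27084 to 27643 on WT arrays. That sum is led by the bright Oaz1 and hides opposite shifts of its parts. Arginine breakdown summed to 6275 and 5832 on the KO arrays, against 4079 and 4575 on the WT arrays. Polyamine synthesis summed to 3630 and 4289 on the KO arrays, against 5655 and 5822 on the WT arrays. The sums of turnover and control overlapped. In bulk tissue fewer cells of a type and less RNA per cell cannot be told apart.

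**Figure D1:**
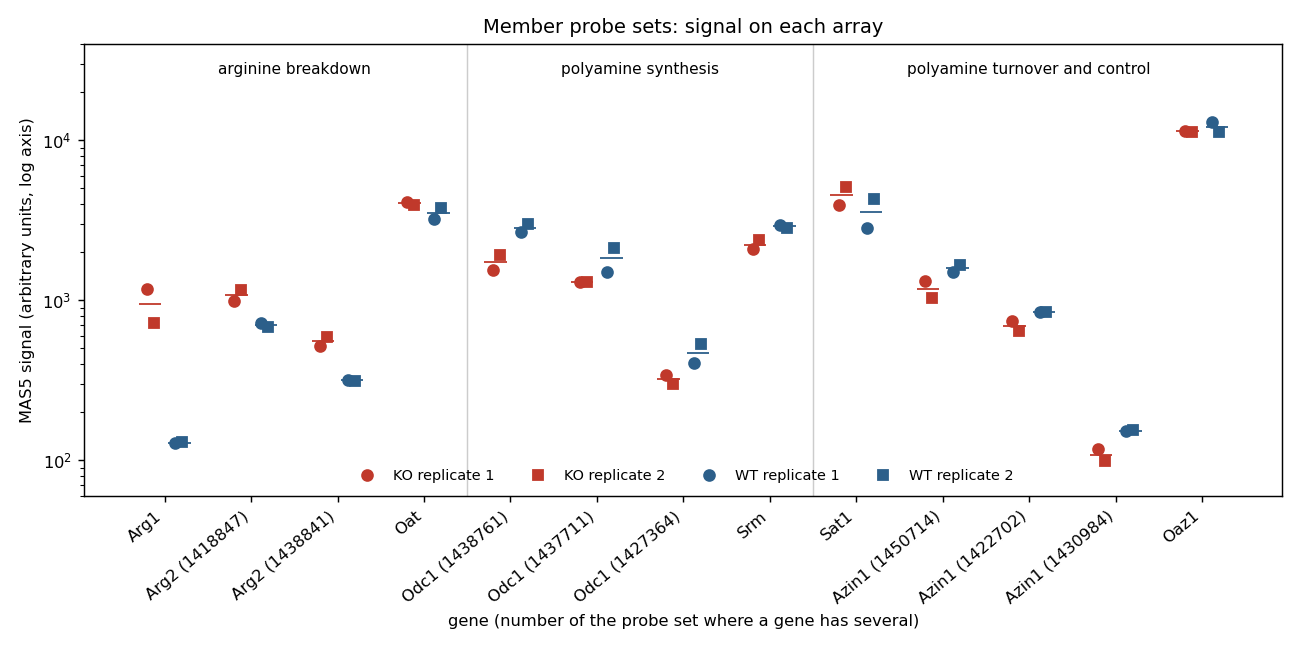
MAS5 signal (arbitrary units, log axis) of the 13 member probe sets on each array, KO in red and WT in blue, with circles for replicate 1, squares for replicate 2 and a bar at each group mean. Arg1 stands at 720 and 1176 in KO and at 128 and 129 in WT, and the other genes differ far less.

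The genes of arginine breakdown lay higher in KO with no overlap of the arrays, as did 26.2% of all tested genes, and Arg1 was the 1 that rose past the threshold. Arg1, which encodes the cytosolic arginase, had signals of 1176 and 720 on KO replicates 1 and 2, against 128 and 129 on WT replicates 1 and 2. The WT arrays were nearly equal, the KO arrays differed from each other, and the lower KO array still lay well above both WT arrays. The mean was 948 ± 323 in KO and 129 ± 0.595 in WT (SD, n = 2 each), a ratio of 7.37. The log2 difference of 2.69 (SE 0.25, limma adjusted p = 0.0124) placed it in rank 13 among the 11360 tested genes from the highest difference down.

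The WT signals of Arg1 lay at the array medians, and in the absence of detection calls their distance from background is unknown. The log2 difference ran from 2.35 without KO replicate 1 (limma adjusted p = 0.00396) to 3.04 without KO replicate 2 (adjusted p = 0.000840). With no filter on dim probe sets Arg1 did not pass (limma adjusted p = 0.0608), and with the filter at the 75th percentile it was not tested. Its lowest adjusted p over the alternatives, 6.16e-06, came after centring on epithelial markers, where its SE was 0.53 against 0.25 as deposited. That centring shifts every probe set of an array alike, so this low p is not read as support.

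Arg2, the mitochondrial arginase, had signals of 991 and 1155 on the KO arrays, against 716 and 683 on the WT arrays. Both KO arrays were higher than both WT arrays. Its log2 difference of 0.60 with an SE of 0.15 did not pass (limma adjusted p = 0.0934). The dimmer Arg2 probe set gave 519 and 591 on the KO arrays, against 317 and 314 on the WT arrays, and a log2 difference of 0.78 (SE 0.16, limma adjusted p = 0.0630). Both Arg2 probe sets thus ran the same way and stood at 1.53 and 1.76 times the WT mean.

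Oat encodes ornithine aminotransferase, which passes ornithine towards glutamate and proline. Its signals were 4108 and 3957 on the KO arrays, against 3234 and 3762 on the WT arrays, without overlap but with a gap smaller than the spread of the WT pair. It differed by 0.21 on the log2 scale (SE 0.13, limma adjusted p = 0.438).

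The 2 measured genes of polyamine synthesis lay lower on both KO arrays, as did 27.5% of all tested genes, and neither passed the threshold. Odc1 encodes ornithine decarboxylase, the rate-limiting enzyme that makes putrescine. Its brightest probe set gave 1551 and 1921 on the KO arrays, against 2684 and 2997 on the WT arrays. Both KO arrays were lower, at 61.1% of the WT mean, and the log2 difference of -0.71 (SE 0.15) did not pass (limma adjusted p = 0.0678). Without KO replicate 2 the difference was -0.86 and passed (adjusted p = 0.0329, in a range from 0.0329 to 0.884 over its alternatives), and without KO replicate 1 it was -0.56 (adjusted p = 0.143).

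The other Odc1 probe sets were lower by less. The next brightest gave 1306 and 1299 on the KO arrays, against 1512 and 2137 on the WT arrays, a log2 difference of -0.46 (SE 0.19). The dimmest gave 343 and 301 on the KO arrays, against 404 and 535 on the WT arrays, a log2 difference of -0.51 (SE 0.20). No overlap was seen in either, and their limma adjusted p-values were 0.239 and 0.221. By the maker's naming, all 3 Odc1 probe sets can match more than 1 transcript, as can those of Srm and Oaz1 and the dimmer one of Arg2.

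Srm encodes spermidine synthase, which adds an aminopropyl group to putrescine. Its signals were 2079 and 2368 on the KO arrays, against 2970 and 2825 on the WT arrays. Both KO arrays were lower, at 76.7% of the WT mean, with a log2 difference of -0.38 (SE 0.13, limma adjusted p = 0.183).

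The genes that control ornithine decarboxylase or remove polyamines did not move as 1 group. Azin1 encodes antizyme inhibitor, an inactive relative of ornithine decarboxylase that draws antizyme away from the enzyme. Its brightest probe set gave 1317 and 1030 on the KO arrays, against 1507 and 1655 on the WT arrays. The groups did not overlap, and the log2 difference was -0.43 (SE 0.17, limma adjusted p = 0.216). The middle probe set gave 738 and 638 on the KO arrays, against 850 and 845 on the WT arrays, and the dimmest gave 118 and 98.3 on the KO arrays, against 152 and 154 on the WT arrays. On both KO arrays all 3 Azin1 probe sets lay below WT, with log2 differences from -0.45 to -0.30, and none passed.

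Oaz1 encodes antizyme 1, which binds ornithine decarboxylase and sends it to the proteasome, and whose translation is promoted by polyamines. Its signals were 11465 and 11277 on the KO arrays, against 13014 and 11270 on the WT arrays. The groups overlapped, with a log2 difference of -0.09 and an SE of 0.12 (limma adjusted p = 0.731). Without WT replicate 1 the difference was 0.013.

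Sat1 encodes the spermidine and spermine acetyltransferase that marks polyamines for export or oxidation. Its signals were 3923 and 5119 on the KO arrays, against 2830 and 4321 on the WT arrays. The groups overlapped, and within each group replicate 2 was higher. The log2 difference of 0.36 (SE 0.23, limma adjusted p = 0.442) lay between 0.05 and 0.66 with 1 array left out.

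**Figure D2:**
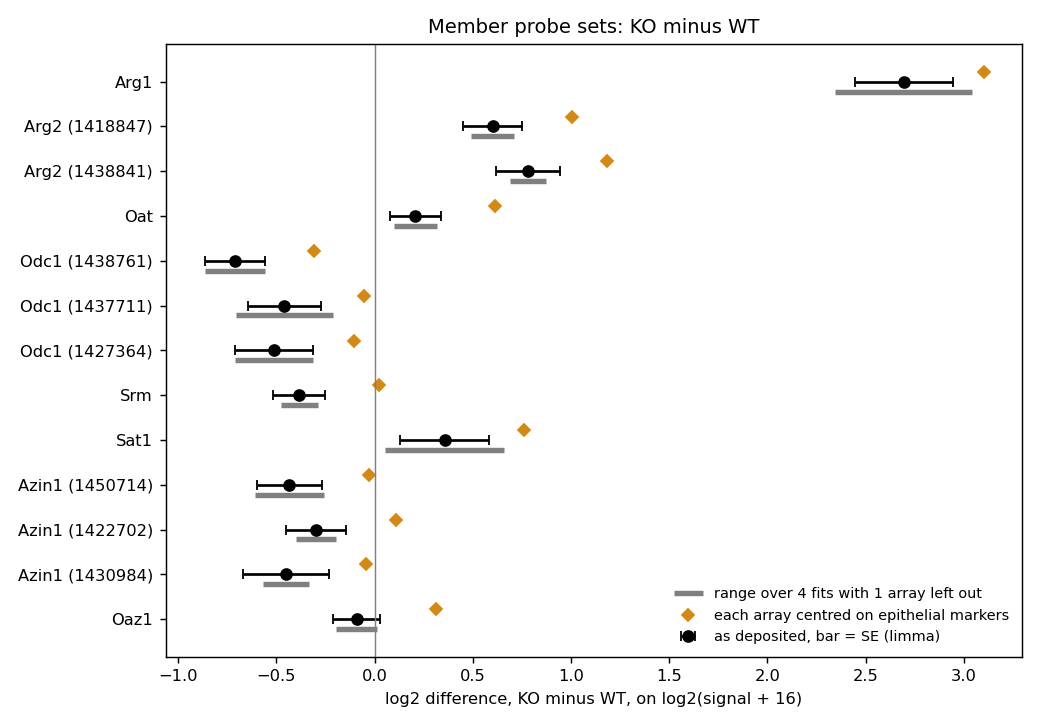
Log2 difference, KO minus WT, of each member probe set on log2(signal + 16), with black points and SE bars for the deposited scale, grey bars for the range with 1 array left out and orange diamonds after centring on epithelial markers. Arg1 stays between 2.35 and 3.10 and both Arg2 probe sets stay above 0, whereas Srm (0.024), 1 Azin1 probe set (0.11) and Oaz1 (0.31) change sign after centring on epithelial markers.

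The direction of the small differences depended on the scale. Over all tested genes, 47.3% of the 292 calls were higher in KO as deposited. With array medians set equal it was 61.7% of 311 calls. With general epithelial markers set equal it was 72.7% of only 77 calls. Each percentage thus belongs to its own set of called genes. The last setting moved the median of all tested genes from -0.01 to 0.40, and it adds the same amount to every gene. On that scale Srm stood at 0.024, the middle Azin1 probe set at 0.11, and the brightest Odc1 probe set at -0.31. Arg1 stood at 3.10 and the 2 Arg2 probe sets at 1.01 and 1.19.

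Of the other genes of arginine and polyamine metabolism, 50 were listed, 44 had a probe set and 30 were bright enough to be tested. Of these 30, 1 fell (Slc7a2), 0 rose and 29 did not pass, beside 1.36% of all tested genes that fell. At an unadjusted p under 0.05 there were 8 of 30, against 21.3% of all tested genes. The KO and WT ranges were separate for 8 higher and 9 lower genes, against 26.2% and 27.5% of all tested genes. The median log2 difference was -0.06, close to the -0.01 of all tested genes.

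Slc7a2 encodes a cationic amino acid transporter that carries arginine, lysine and ornithine into cells. Its signals were 435 and 550 on the KO arrays, against 1300 and 1199 on the WT arrays. Both KO arrays were far below both WT arrays, at 39.4% of the WT mean, and the log2 difference came to -1.32 (SE 0.17, limma adjusted p = 0.0261). It stood at -1.16 without KO replicate 1 (adjusted p = 0.0196). It lost the call without WT replicate 1 (-1.27, adjusted p = 0.0775), without WT replicate 2 (-1.38, adjusted p = 0.108), with no filter (adjusted p = 0.0876) and on the epithelial scale (-0.92, adjusted p = 0.884), in a range from 0.00747 to 0.884 over its alternatives.

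Slc7a1, the widely expressed relative of Slc7a2 and named here after its values were seen, gave 445 and 523 on the KO arrays, against 671 and 1145 on the WT arrays. Both KO arrays were lower, with a log2 difference of -0.84 (SE 0.26, limma adjusted p = 0.144). The other 3 tested transport genes had log2 differences from -0.07 to 0.21.

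In the remaining roles no gene passed, and the tested gene with the largest absolute difference is given for each. Smox, the spermine oxidase that turns spermine back into spermidine, gave 416 and 536 on the KO arrays, against 753 and 903 on the WT arrays (log2 difference -0.78, SE 0.19, limma adjusted p = 0.0838). Without KO replicate 2 Smox passed (-0.96, adjusted p = 0.0434). Aldh18a1, which makes the precursor of proline and ornithine from glutamate, gave 888 and 1106 on the KO arrays, against 1363 and 1784 on the WT arrays (-0.65, adjusted p = 0.128).

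Ahcy, which removes the S-adenosylhomocysteine left by methylation reactions, gave 1082 and 1533 on the KO arrays, against 1802 and 2197 on the WT arrays (-0.62, limma adjusted p = 0.159). Without KO replicate 2 Ahcy passed as well (-0.87, adjusted p = 0.0467). KO arrays were lower than WT arrays for all 3 of these genes, which were picked for the size of their difference. In the role of Aldh18a1 the other tested genes went the other way, Aldh4a1 by 0.62 and Prodh by 0.55. The Prodh groups overlapped, neither gene passed, and both were named after their values were seen.

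Nos1, a nitric oxide synthase that competes for arginine, gave 297 and 286 on the KO arrays, against 533 and 289 on the WT arrays, so its difference of -0.41 rested on 1 WT array (0.0092 without WT replicate 1). In the list of other users of arginine, 3 of 5 tested genes lay higher on both KO arrays and 0 lay lower. The 3 were Nos3, Gatm and Azin2, beside 26.2% of all tested genes that lay higher without overlap. The median of 0.24 was the value of Azin2, an antizyme inhibitor (limma adjusted p = 0.506). Azin2 and Gamt, both in that list, do not themselves use arginine. Nos3, Gatm, Azin2 and Atp13a3 were named after their values were seen, and Atp13a3 comes from the list of polyamine breakdown and export. The endothelial synthase gene Nos3 gave 2508 and 2203 on the KO arrays, against 1826 and 1743 on the WT arrays (0.39, limma adjusted p = 0.177). Gatm, which starts creatine synthesis from arginine, gave 384 and 423 on the KO arrays, against 313 and 303 on the WT arrays (0.37, adjusted p = 0.275). Atp13a3, a transporter of polyamines, gave 1371 and 1373 on the KO arrays, against 916 and 1153 on the WT arrays (0.41, adjusted p = 0.223). Asl, the argininosuccinate lyase that makes arginine, was alike in both groups at 692 and 715 on the KO arrays and 785 and 695 on the WT arrays. Eif5a, the translation factor that carries the spermidine-derived hypusine, gave 14788 and 13685 on the KO arrays, against 15143 and 15109 on the WT arrays. Their log2 differences were -0.07 for Asl and -0.09 for Eif5a, and both changed sign on the epithelial scale (0.34 and 0.32).

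**Figure D3:**
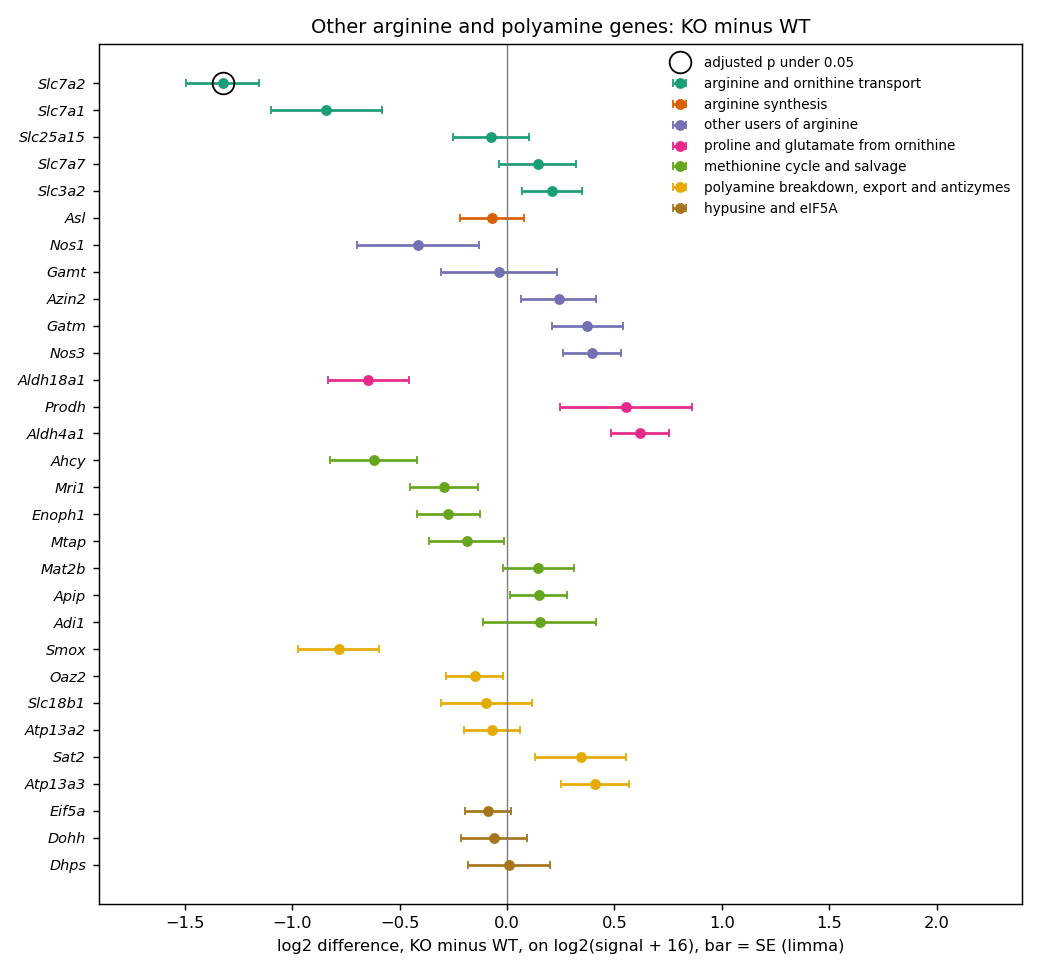
Log2 difference, KO minus WT, with SE bars for the 30 other tested genes of arginine and polyamine metabolism, coloured by role. Only Slc7a2 (circled, -1.32) passed the threshold on the deposited scale, and the remaining genes lie between -0.84 and 0.62.

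Markers of other cell types moved beside these genes. Of 11 tested macrophage markers 0 passed limma's adjusted threshold, beside 2.57% of all tested genes. At an unadjusted p under 0.05 there were 6, against 21.3% of all tested genes, and the median log2 difference was 0.43. Cd163, a scavenger receptor of tissue macrophages, had the largest at 1.07 (adjusted p = 0.0507), and the next smallest p-values were those of Mrc1 (0.57) and Cd14 (0.80). Adgre1 and Csf1r, which define macrophages, differed by 0.08 and 0.09. Summed macrophage signals were 48440 and 43691 on KO replicates 1 and 2, against 43840 and 40312 on WT replicates 1 and 2, a ratio of 1.09. That sum is led by the bright Retnla, Lyz2 and Csf1r. By gene, 6 of the 11 lay higher on both KO arrays, as did 26.2% of all tested genes, 0 lay lower and 5 overlapped. Retnla, like Arg1 a product of alternatively activated macrophages, had 15138 and 12229 on the KO arrays, against 15767 and 13349 on the WT arrays (log2 difference -0.09). The lysozyme gene Lyz2 differed by -0.15 and the lectin gene Mgl2 by 0.43, and these 3 were named after their values were seen. No macrophage marker was at 0, and Chil3, also a product of alternatively activated macrophages, was too dim to test, as were all 5 measured neutrophil markers.

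Skeletal muscle markers had higher signals in KO. Of 10 tested, 5 passed as higher in KO and 0 as lower, beside 1.21% and 1.36% of all tested genes. The median log2 difference of the 10 was 2.68. The WT signals of these 5 lay below 126, the signal that a probe set had to reach on average to be tested. They therefore entered the test only through the KO arrays on which they were high, and their calls are a description. The WT means of Ckm (81.1), Mylpf (92.9) and Actn3 (89.2) lay below 126 too, so the median of the list also rests on such genes. Myh4 had 1376 and 756 on the KO arrays, against 115 and 69.3 on the WT arrays. Tnnc2 had 664 and 406 on the KO arrays, against 88.4 and 36.8 on the WT arrays, and Myh1 had 459 and 240 on the KO arrays, against 68.0 and 28.6 on the WT arrays. The summed signal of the muscle markers was 12141 and 6644 on KO replicates 1 and 2, against 3333 and 1572 on WT replicates 1 and 2. Much of the WT sum came from Myl1, named here after its values were seen. Myl1 had 2872 and 1166 on the KO arrays, against 2026 and 1161 on the WT arrays, with overlap and a log2 difference of 0.25. The part of macrophages or muscle in the Arg1 signal was not tested.

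Proliferation markers were lower in KO beside Odc1, Srm and Azin1. Of 14 tested, 9 fell and 0 rose, beside 1.36% of all tested genes that fell. All 14 lay lower on both KO arrays, as did 27.5% of all tested genes, and the median was -1.45. Mcm6, a replication helicase gene, fell by 1.71 (limma adjusted p = 0.0184). Its partner Mcm5 stood at -1.64 (adjusted p = 0.0236) and the topoisomerase gene Top2a at -1.63 (adjusted p = 0.0308), and both passed. Among 19 general epithelial markers, Ehf fell by 1.78 (limma adjusted p = 0.0435), Krt7 rose by 1.02 (adjusted p = 0.0484) and 17 did not pass. Over all tested genes, 2.57% passed in either direction. Cldn4 stood at 0.88 (adjusted p = 0.0546), and the median of the 19 markers was -0.45. Their summed signal was 36195 and 58938 on KO replicates 1 and 2, against 54030 and 56416 on WT replicates 1 and 2. The part of dividing or epithelial cells in the polyamine genes was not tested.

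**Figure D4:**
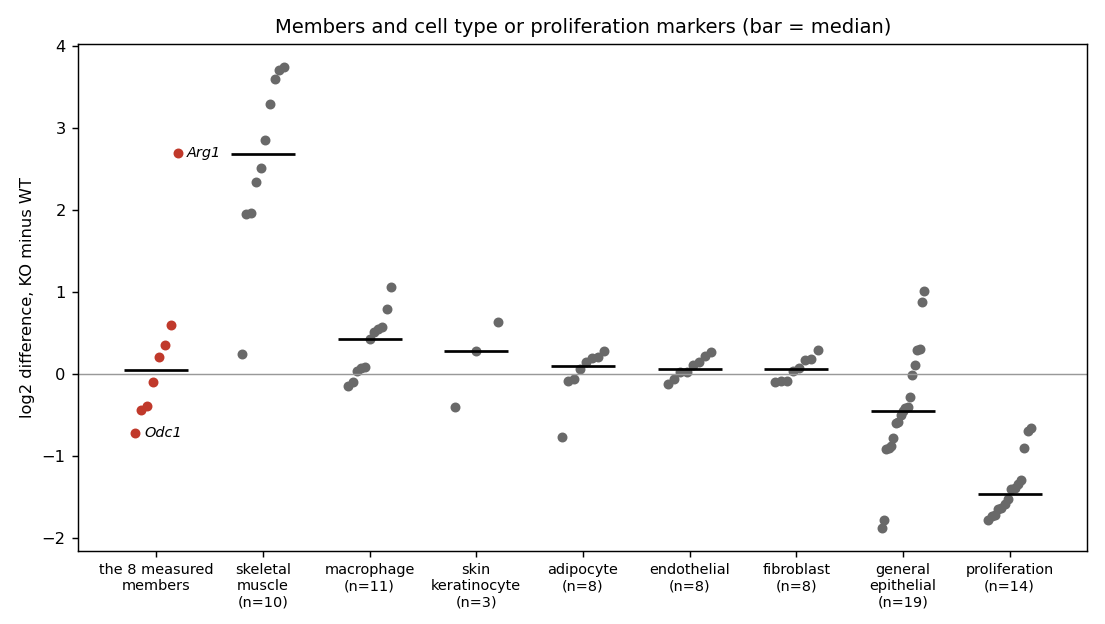
Log2 difference, KO minus WT, of the 8 measured members (red, brightest probe set) and of the tested genes of 8 marker lists (grey), with a bar at each median. Arg1 stands at 2.69, the tested muscle markers have a median of 2.68 and the macrophage markers a highest value of 1.07. Most of these muscle markers entered the test only through the KO arrays on which they were high. Odc1 (-0.71) lies among the higher of the proliferation markers (-1.78 to -0.65).

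The genes whose pattern over the 4 arrays lay nearest to those of Arg1 and Odc1 were found by Euclidean distance between log2 profiles centred on their means. For Arg1 they were Ache (acetylcholinesterase, distance 0.313), Trim34a (0.382) and Ufsp1 (0.556). Ache had 442 and 330 on the KO arrays, against 44.5 and 58.0 on the WT arrays. Trim34a had 520 and 423 on the KO arrays, against 45.0 and 58.6 on the WT arrays. The WT signals of Ache and Trim34a lay below the filter limit of 126, so both entered the test only through their KO arrays. For Odc1 they were Traf2, E130309D02Rik and Fhod3, at distances of 0.0111 to 0.0329. With 4 arrays such likeness says little more than that the size of the difference and the order within each pair were alike.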

How the data were processed

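Values were taken from 4 Affymetrix arrays of mouse mammary tissue. The authors deposited linear probe set intensities from MAS5, as named in the submitters' processing notes. Its version, settings and detection calls are not given in the sources used here. That the authors scaled each array to a common trimmed mean was read from the values. Samples were grouped by the genotype label, and replicates were numbered in accession order. Of 45101 probe sets 64 controls were left out, 34945 had 1 symbol in the platform annotation, 932 had several and 9160 are unnamed here. Probe sets with several symbols named no gene.

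Signals were analysed as log2(signal + 16), a scale that shrinks the change of dim genes. Probe sets with a mean log2 of at least 7.15 (the median, a signal of 126) were tested with limma 3.58.1 in R 4.3.3 (lmFit, eBayes with a trend), with p adjusted by Benjamini-Hochberg over every probe set tested and called under 0.05. The fit has 2 residual degrees of freedom per probe set, and its p-values cover the spread among these 4 samples alone. An exact two-sided permutation test of 2 against 2 arrays cannot go below 0.333, so none was used. Precision is limited by the 4 arrays.

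The members and lists were chosen with earlier results of these data known. Named genes were all members, Stat5a and Stat5b, up to 8 other pathway genes past the threshold (or the 1 with the largest absolute difference in a role with none), the 3 nearest patterns to Arg1 and to the other member with the largest difference, and up to 3 markers with the smallest p in the macrophage, muscle, epithelial and proliferation lists. Adipocyte, endothelial, fibroblast, keratinocyte, neutrophil, T cell and B cell markers were also listed. The alternatives tried were pseudocounts of 1 and 64, quantile normalization, centring on the median or on epithelial markers, no filter, a 75th percentile filter, no variance trend, the mean of a gene's probe sets, and leaving out each array with the tested set held fixed.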

Additional observations from a re-analysis of the deposited data

How the results depend on the processing

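For the 13 member probe sets, 146 of 152 alternative values kept their direction and their side of the threshold. The exceptions were Arg1 with no filter and Odc1 without KO replicate 2, given above, and 4 reversals, none of a called value. These were Srm (0.024), the middle Azin1 probe set (0.11) and Oaz1 (0.31) after centring on epithelial markers, and Oaz1 with an array left out (-0.19 to 0.013). Among the other named pathway genes, Asl turned to 0.013 after median centring and 0.34 after epithelial centring, and ran from -0.15 to 0.016 with an array left out. Nos1 ran from -0.84 to 0.0092 with an array left out, and Eif5a turned to 0.32 after epithelial centring. Of the members 1 passed, against 0 with no filter and 0 with the 75th percentile filter, which does not test Arg1. The count also moved with an array left out. At an unadjusted limma p under 0.05 there were 5 of 8 members with no filter, beside 6480 of 45037 probe sets of the whole array. With the 75th percentile filter there were 4 of 7, beside 2305 of 11260 probe sets. Of the other pathway genes 1 passed, against 0 after epithelial centring (0 unadjusted), 0 with no filter (9 unadjusted) and 0 to 3 with an array left out. Without WT replicate 1 or 2 the 0 passing genes stood beside 7 and 5 at an unadjusted p under 0.05. Over the whole array 450 probe sets passed, against 117 after epithelial centring, 38 with no filter, 182 with the 75th percentile filter and 205 with no trend. With an array left out the count ran from 67 (without WT replicate 2) to 958 (without KO replicate 2), with 101 without WT replicate 1 and 662 without KO replicate 1. After epithelial centring the SE rose as well, from 0.17 to 0.55 for Slc7a2 and from 0.19 to 0.54 for Smox. The cause of these shifts was not tested, and the filter settings also differ in the number of probe sets tested. No paired analysis was possible because the replicate numbers only follow the order of deposit. Without detection calls, a dim signal such as that of Arg1 on WT arrays has no known distance from background.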

Other observations

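Ache and Ufsp1, found above as near patterns of Arg1, are direct neighbours on mouse chromosome 5 in the GRCm38.p6 annotation. Ufsp1, a protease of the ubiquitin-like modifier UFM1, had signals of 1185 and 779 on the KO arrays, against 221 and 179 on the WT arrays (log2 difference 2.18, limma adjusted p = 0.0178). Its dimmer probe set, which was below the filter, gave 217 and 128 on the KO arrays, against 63.7 and 58.4 on the WT arrays. Ache had a log2 difference of 2.57, and with WT signals of 44.5 and 58.0, below the filter limit of 126, it entered the test only through its KO arrays. Both genes were chosen for their likeness to Arg1, so their size is a description, and Arg1 itself lies on chromosome 10.

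Some listed arginine genes lay below the filter on dim signals. Nos2, the inducible nitric oxide synthase that shares its substrate with arginase in macrophages, had signals of 7.99 and 6.00 on the KO arrays, against 7.08 and 13.2 on the WT arrays. Aldh4a1, which was bright enough to be tested, oxidises the shared intermediate of ornithine and proline breakdown to glutamate. It was picked after its values were seen and had 2525 and 2854 on the KO arrays, against 1807 and 1678 on the WT arrays. Its log2 difference of 0.62 did not pass (limma adjusted p = 0.0688).

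Among listed cell types with a measured summed signal, adipocyte markers had a median log2 difference of 0.11, endothelial markers 0.07, fibroblast markers 0.06 and skin keratinocyte markers 0.28 over 3 tested genes, and 0 of these lists' genes passed limma's threshold. At an unadjusted p under 0.05 there was 1 fibroblast and 1 keratinocyte marker and 0 of the others, against 21.3% of all tested genes. The single tested T cell marker had -1.21 (adjusted p = 0.514), and 0 B cell markers were bright enough to test.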
